A study of Mus musculus with 10 samples.

Results

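The mitotic checkpoint and G2/M genes are 39 genes whose products carry a cell from the end of DNA replication through chromosome segregation. They were taken as a list of symbols, each represented by the brightest probe set that the platform's gene table assigns to that symbol alone. Of the 39 genes, 38 were measured among 19938 genes in all, and Ccnb1, which encodes cyclin B1, had no such probe set and was not analysed here. RNA came from 1 side of the divided forebrain of each of 10 mouse embryos at E12.5 on a mixed CD1/NMRI background, with 1 Affymetrix Mouse Gene ST array per embryo. The 5 embryos titled dtg are annotated as transgenic and the study describes a constitutively active FoxO3 allele under the forebrain-specific CaMKIIa promoter. The 5 embryos titled stg are annotated as controls, and the labels do not say which transgene, if any, the controls carry. Embryos of 2 dams were used, and the labels do not record which belonged to which, so the part of litter in any difference was not tested. The groups are called transgenic and control below.

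Cyclins bound to CDK1 start mitosis, Aurora and Polo kinases build the spindle, and the kinetochore ties each chromosome to it. The spindle checkpoint holds back the anaphase-promoting complex until every chromosome is attached, after which securin and cyclin B are destroyed. In the embryonic forebrain most of these genes are expressed mainly by dividing progenitors of the ventricular and subventricular zones and are low in postmitotic neurons. FoxO factors are known for restraining the cell cycle, while the related factor FoxM1 activates many G2/M genes. Promoters of G2/M genes are known for CCAAT boxes, bound by NF-Y, and for the cell cycle homology region, bound by the MuvB core of the DREAM complex and by its B-MYB and FoxM1 partners.

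The promoter sequences are described first, and their part in the differences between the embryos was not tested. RefSeq windows of GRCm38.p6, 300 bases long with 250 before and 50 after the annotated start, were found for 32 of the 38 measured genes, and the first listed window of each gene was searched on both strands. The CCAAT box (CCAAT) occurred in 25 of 32 members (78.1%), against 38.2% of the 15614 array genes with a window. At least 2 CCAAT boxes occurred in 20 members (62.5%), against 13.0% of those genes. The core of the cell cycle homology region (TTTGAA) occurred in 23 members (71.9%), against 15.2%. Both motifs were present in 21 members (65.6%), against 6.12% of array genes, and in 1 of 32 windows a CCAAT and a TTTGAA match shared bases. The forkhead motif GTAAACA occurred in 2 members, Ect2 and Nuf2 (6.25%), against 3.02%. These matches are descriptions of letters in a window and not evidence of a bound factor.

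The 120 bases before the start are printed for 9 members, with every CCAAT box and TTTGAA of either strand in capitals. The first 5 genes carry both motifs before the start, whereas other members, such as Plk1 and Hmmr, have TTTGAA only after it. The next 3 are among the members with the smallest p-values and carry CCAAT boxes only in this stretch, and Birc5 carries neither. The stretches on the minus strand are Cdc20 at chr4:118437344-118437463, Cdk1 at chr10:69352913-69353032, Top2a at chr11:99024190-99024309, Spc25 at chr2:69206214-69206333 and Aurka at chr2:172370571-172370690. Those on the plus strand are Ube2c at chr2:164769809-164769928, Espl1 at chr15:102296173-102296292, Cks2 at chr13:51645112-51645231 and Birc5 at chr11:117849117-117849236.
Cdc20: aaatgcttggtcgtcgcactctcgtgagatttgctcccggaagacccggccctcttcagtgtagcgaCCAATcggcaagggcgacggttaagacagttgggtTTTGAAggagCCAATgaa
Cdk1: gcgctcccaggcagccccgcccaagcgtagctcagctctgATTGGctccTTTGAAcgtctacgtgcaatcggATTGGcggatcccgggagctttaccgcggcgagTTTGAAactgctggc
Ube2c: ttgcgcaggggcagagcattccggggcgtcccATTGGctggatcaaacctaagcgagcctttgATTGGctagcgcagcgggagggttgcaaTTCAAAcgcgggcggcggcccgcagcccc
Espl1: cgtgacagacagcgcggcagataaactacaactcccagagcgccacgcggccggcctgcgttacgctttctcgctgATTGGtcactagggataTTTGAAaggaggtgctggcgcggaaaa
Top2a: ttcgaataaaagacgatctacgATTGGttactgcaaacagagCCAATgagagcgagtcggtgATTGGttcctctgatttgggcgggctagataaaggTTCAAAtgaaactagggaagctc
Spc25: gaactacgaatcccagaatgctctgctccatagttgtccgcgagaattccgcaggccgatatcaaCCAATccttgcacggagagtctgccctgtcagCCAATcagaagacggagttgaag
Cks2: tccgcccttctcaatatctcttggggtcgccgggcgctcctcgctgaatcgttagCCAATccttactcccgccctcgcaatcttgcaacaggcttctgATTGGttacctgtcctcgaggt
Aurka: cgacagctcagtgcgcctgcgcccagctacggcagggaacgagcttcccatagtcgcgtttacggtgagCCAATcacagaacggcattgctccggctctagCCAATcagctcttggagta
Birc5: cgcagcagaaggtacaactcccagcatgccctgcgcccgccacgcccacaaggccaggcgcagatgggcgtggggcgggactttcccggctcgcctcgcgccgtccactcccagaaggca
In Cdc20 the TTTGAA lies 18 bases before the start, between CCAAT boxes at 53 and 8 bases. Cdk1 carries TTTGAA at 71 and 15 bases before the start and reversed CCAAT boxes at 80 and 48. In Ube2c the reversed TTTGAA lies 29 bases before the start, and in Espl1 the forward one lies 27 bases before it. Spc25 and Aurka have their TTTGAA after the start, at 24 and 32 bases. The median log2 difference between the groups was -0.17 over the 21 members with both motifs and -0.18 over the 11 others with a window. These values were given with no test.

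All 38 measured genes had a lower mean in transgenic than in control forebrains, by 0.07 to 0.31 on the log2 scale of the deposited intensities. The median log2 difference over the members was -0.18, against -0.0038 over all genes, and 51.9% of all genes had a difference below 0. No member passed an adjusted p of 0.05 in limma, where 0.105% of all genes passed in either direction and 0.0401% passed in the lower direction. The members' adjusted p-values lay between 0.392 and 0.903. At an unadjusted p below 0.05 in limma 13 of 38 members lay lower (34.2%), against 3.48% of all genes. That count was unstable: leaving out 1 embryo at a time gave 3 without transgenic embryo 1 or 3, 4 without control embryo 5, 7 without transgenic embryo 5, control embryo 1 or control embryo 3, 21 without transgenic embryo 2 and 25 without transgenic embryo 4. The matching shares of all genes in these refits were not computed, so their counts are descriptions only. In none of the 38 did all transgenic embryos lie below all controls, a pattern seen in 0.622% of all genes. Without transgenic embryos 1 and 3, 28 members were lower and the median was -0.04. These embryos were picked after their low values were seen, so their removal had to bring the difference nearer to 0, and this value is a description only. The median was -0.10 without transgenic embryo 1 alone, and the adjusted tests called 0 members in that fit.

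**Figure D1:**
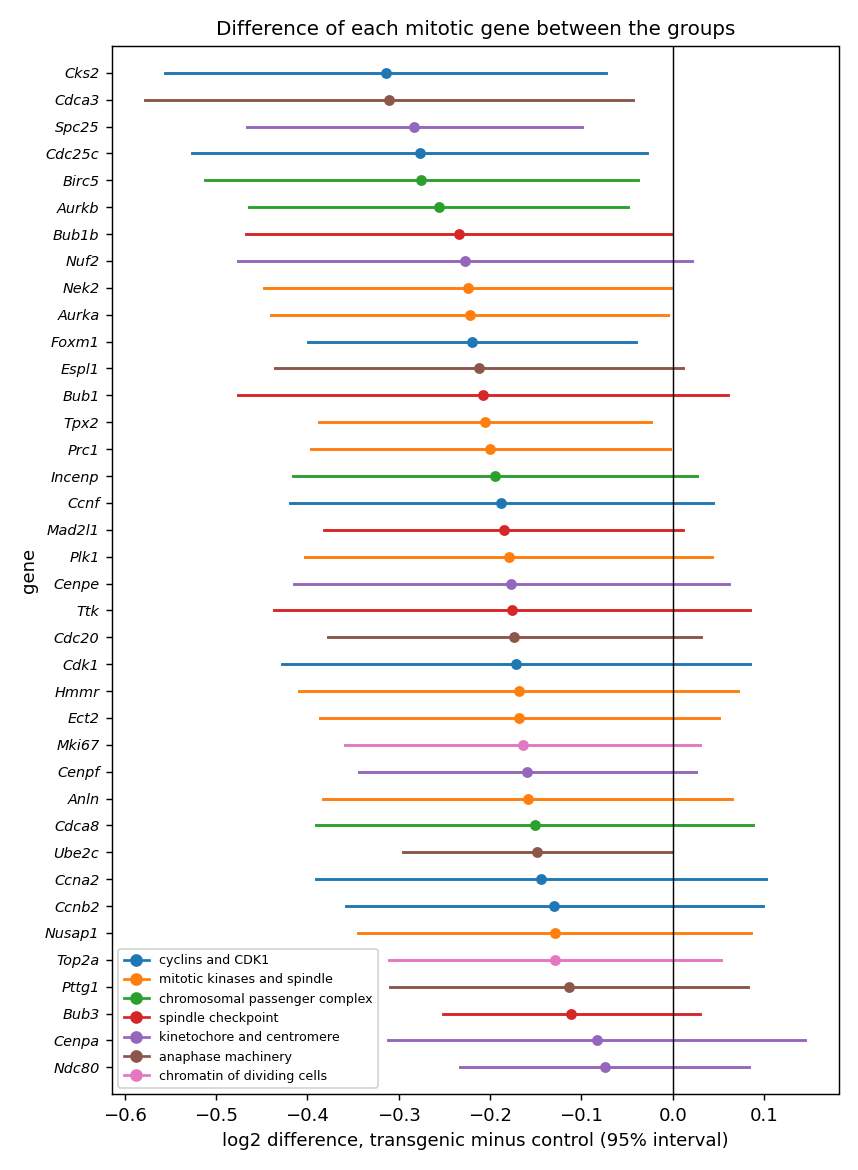
Log2 difference, transgenic minus control, for each of 38 mitotic genes (dot) with its 95% limma interval (line), n = 5 embryos per group, coloured by role. Every dot lies left of 0, between -0.31 and -0.07, and 13 intervals lie wholly below 0 before any adjustment.

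The transgenic group was uneven. Transgenic embryos 1 and 3 were the 2 lowest of all 10 embryos in all 38 genes, an order held by 7.21% of all genes on the arrays. Embryo 1 was the lowest in 27 genes and embryo 3 in the other 11. Relative to the mean of the controls, the median over the 38 genes was -0.46 in transgenic embryo 1 and -0.37 in transgenic embryo 3. It was -0.14 in transgenic embryo 5, which lay below all controls in 19 genes. Transgenic embryos 2 and 4 had medians of -0.02 and 0.04 and lay below all controls in 8 genes and 1 gene, so they sat among the controls. Control medians were -0.03, -0.05, -0.0010, -0.06 and 0.12 in embryos 1 to 5, and control embryo 5 was the highest of all 10 embryos in 26 genes. Apart from the 7.21%, the matching shares of all genes were not computed, so these counts per embryo are descriptions only. The transgenic group therefore held both the lowest values and values inside the control range. RNA from whole tissue cannot tell apart fewer dividing cells and less RNA per dividing cell.

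**Figure D2:**
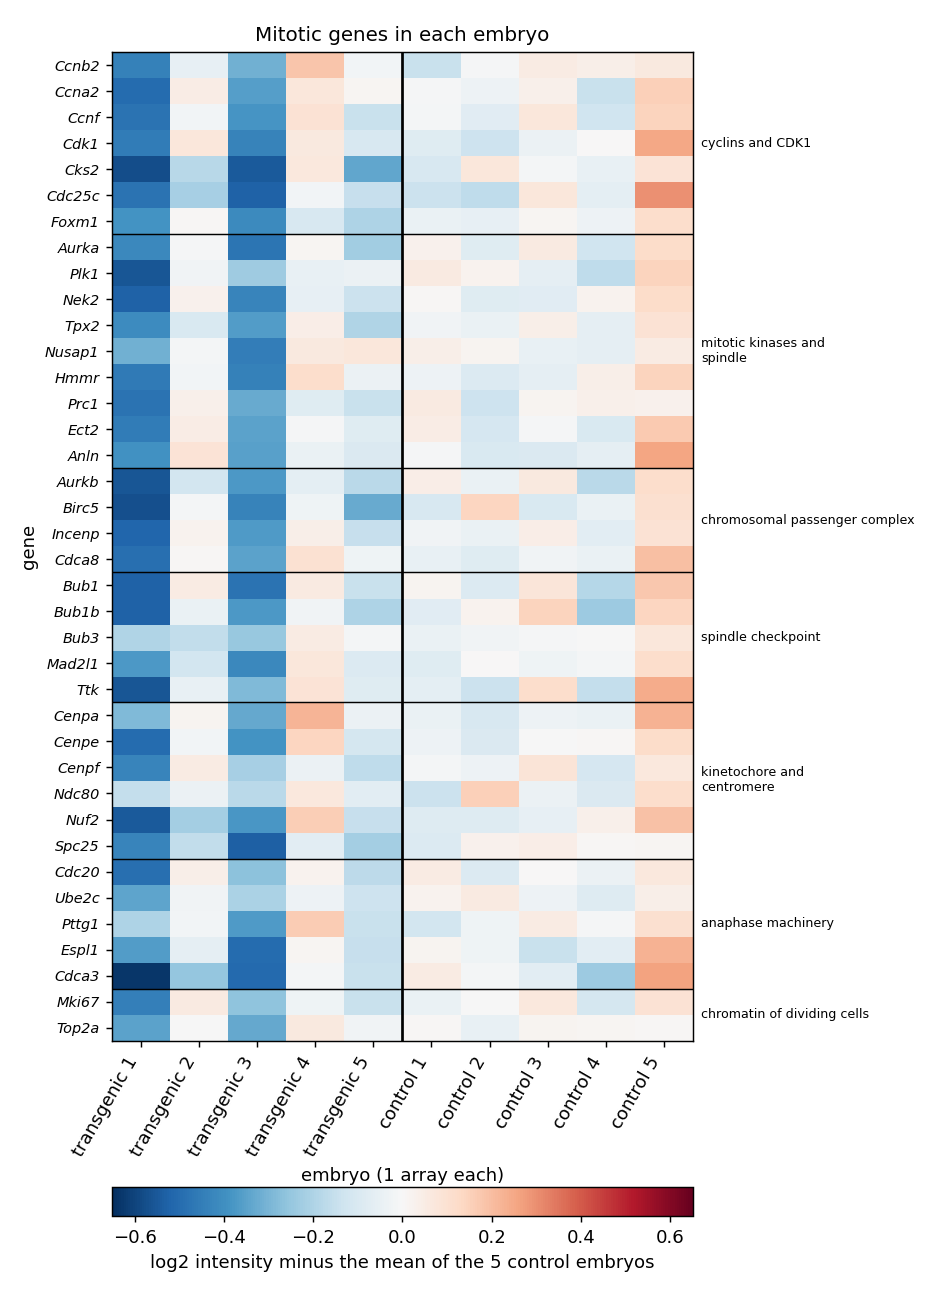
Log2 intensity of 38 mitotic genes (rows, by role) in 10 embryos (columns), each minus that gene's mean over the 5 control embryos; blue is lower and red is higher. Transgenic embryos 1 and 3 are blue in every row, transgenic embryos 2 and 4 resemble the controls, and control embryo 5 holds the highest value in 26 rows.

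The spread within the groups differed in the same way. The standard deviation among 5 embryos was larger in the transgenic group for 37 of 38 members, against 46.7% of all genes, with Ndc80 the exception. Its median over the members was 0.223 in transgenic and 0.0974 in control embryos, whereas over all genes it was 0.114 and 0.117. Within the transgenic group 1 principal component held 91.3% of the members' variance, against 66.3% within the controls, and over all genes these shares were 42.2% and 56.9%. The members thus moved as a block among the transgenic embryos. No test was made of these spreads, because the order of the embryos was seen first.

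**Figure D3:**
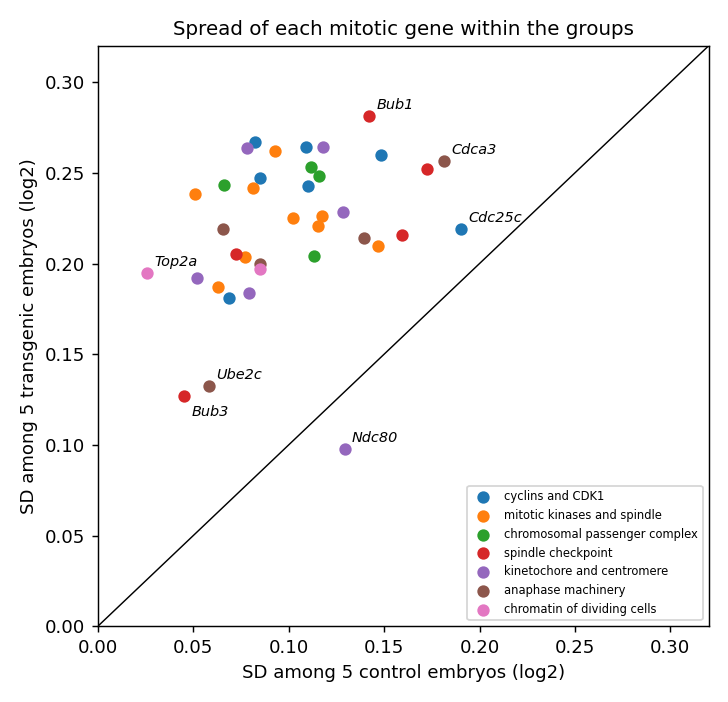
Standard deviation of log2 intensity among 5 transgenic embryos (vertical) and 5 control embryos (horizontal) for each of 38 mitotic genes, with the line of equal spread. All points but Ndc80 lie above the line; Bub1 has the largest transgenic SD at 0.282 and Top2a the smallest control SD at 0.0259.

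Among genes of mitotic entry (cyclins, CDK1 and their regulators), all 7 measured were lower in the transgenic mean, with a median log2 difference of -0.19. Cks2, which encodes a small subunit bound to cyclin-dependent kinases, had the largest difference of all members (probe set 10424779). It read 6.66, 7.05, 6.69, 7.30 and 6.90 in transgenic embryos 1 to 5 and 7.13, 7.31, 7.22, 7.18 and 7.32 in control embryos 1 to 5. All transgenic embryos but embryo 4 lay below every control. The difference was -0.31 ± 0.11 (SE, n = 5 per group; 95% interval -0.56 to -0.07), or 80.4% of the control level, with a limma adjusted p of 0.515. Both other Cks2 probe sets gave a similar picture, with differences of -0.36 and -0.40, though they name the same transcripts and are not independent.

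Foxm1, the forkhead activator of G2/M genes, showed the same arrangement with embryo 2 in place of embryo 4. It read 6.97, 7.37, 6.94, 7.25 and 7.16 in the transgenic and 7.31, 7.30, 7.37, 7.33 and 7.47 in the control embryos. Transgenic embryo 2 lay within the control range and the other 4 below it. The difference was -0.22 ± 0.082 (95% interval -0.40 to -0.04; limma adjusted p = 0.559). Cdc25c, a phosphatase that activates CDK1, read 6.67, 6.93, 6.62, 7.13 and 6.998 in transgenic and 7.01, 6.98, 7.22, 7.08 and 7.45 in control embryos, a difference of -0.28 (limma adjusted p = 0.617). Here 3 transgenic embryos lay below every control, and the controls themselves had the largest SD of any member, 0.190.

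Cdk1, the kinase that drives entry into mitosis, read 7.77, 8.30, 7.79, 8.29 and 8.12 in transgenic and 8.14, 8.09, 8.19, 8.22 and 8.47 in control embryos. Embryos 1 and 3 stood below the controls and the other 3 overlapped them. The difference was -0.17 with a 95% interval of -0.43 to 0.08 (limma adjusted p = 0.806). The cyclin genes differed by -0.19 (Ccnf), -0.14 (Ccna2) and -0.13 (Ccnb2). In Ccnf 3 transgenic embryos lay below every control, and in both others 2 did. Without transgenic embryos 1 and 3 the difference was 0.01 for Cdk1 and 0.04 for both Ccna2 and Ccnb2.

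The 9 genes of mitotic kinases, spindle and cytokinesis were all lower, with a median log2 difference of -0.18. Tpx2, which activates Aurora A on spindle microtubules, read 8.44, 8.75, 8.49, 8.90 and 8.66 in transgenic and 8.83, 8.81, 8.89, 8.79 and 8.95 in control embryos. All transgenic embryos but embryo 4 lay below the narrow control range. The difference was -0.21 ± 0.083 (95% interval -0.39 to -0.02; limma adjusted p = 0.606). Aurka, encoding Aurora A itself, read 7.52, 7.93, 7.46, 7.95 and 7.71 in transgenic and 7.96, 7.86, 7.997, 7.81 and 8.06 in control embryos. Embryos 1, 3 and 5 lay below every control, and the difference was -0.22 (limma adjusted p = 0.649).

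Prc1, which bundles microtubules of the central spindle, read 8.09, 8.60, 8.24, 8.49 and 8.43 in transgenic and 8.63, 8.44, 8.59, 8.60 and 8.60 in control embryos. Control embryo 2 stood below the other controls, and 3 transgenic embryos lay lower still. The difference was -0.20 (limma adjusted p = 0.649). Nek2, a centrosome kinase, differed by -0.22, and Plk1, the Polo kinase of mitotic entry and spindle assembly, by -0.18. Ect2, the exchange factor that sets up the cleavage furrow, and Anln, the contractile ring protein anillin, differed by -0.17 and -0.16. The spindle proteins Hmmr and Nusap1 differed by -0.17 and -0.13, and each had 2 transgenic embryos below every control.

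The chromosomal passenger complex, which corrects faulty attachments and guides cytokinesis, had the largest median of the role groups, -0.23 over 4 of 4 genes. Aurkb, its kinase, read 8.13, 8.57, 8.31, 8.62 and 8.51 in transgenic and 8.73, 8.64, 8.75, 8.51 and 8.80 in control embryos. Control embryo 4 reached down into the transgenic range, so 2 transgenic embryos lay below every control while all 5 lay below the control median. The difference was -0.26 ± 0.095 (95% interval -0.46 to -0.05; limma adjusted p = 0.554). Birc5, encoding survivin, read 6.47, 7.03, 6.61, 7.02 and 6.71 in transgenic and 6.94, 7.18, 6.94, 7.003 and 7.15 in control embryos. Embryos 1, 3 and 5 lay below every control, and the difference was -0.28 (limma adjusted p = 0.596). The scaffold gene Incenp and Cdca8, which encodes borealin, differed by -0.19 and -0.15.

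The 5 genes of the spindle checkpoint were all lower, with a median log2 difference of -0.18 and a range from -0.23 to -0.11. Bub1b, encoding the checkpoint protein BubR1, differed by -0.23 and the checkpoint kinase gene Bub1 by -0.21. Mad2l1, encoding the Mad2 protein that sequesters Cdc20, differed by -0.18 with 4 transgenic embryos below every control. The kinase gene Ttk also differed by -0.18, with 2 embryos below. Bub3, whose product binds Bub1 and BubR1 and is also made in cells that do not divide, read 8.80, 8.83, 8.75, 9.05 and 8.98 in transgenic and 8.95, 8.97, 8.98, 8.99 and 9.07 in control embryos. Bub3 had embryos 1 and 3 lowest, as in the rest of the list. It placed transgenic embryo 2 below every control too, with transgenic embryo 5 inside the control range. Its difference was -0.11 ± 0.065 (95% interval -0.25 to 0.03; limma adjusted p = 0.759), the smallest of the checkpoint genes.

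Genes of the kinetochore and centromere ranged most widely, from -0.28 to -0.07. Spc25, a subunit of the Ndc80 complex that grips microtubules, had the smallest p of all members (probe set 10483401). It read 7.38, 7.65, 7.28, 7.74 and 7.59 in transgenic and 7.72, 7.84, 7.86, 7.82 and 7.83 in control embryos. Transgenic embryo 4 reached control embryo 1, the lowest control, and all others lay below the controls. The difference was -0.28 ± 0.084 (95% interval -0.47 to -0.10; limma unadjusted p = 0.00569, adjusted p = 0.392), and it stayed between -0.34 and -0.22 when each embryo in turn was left out. Partners in the same complex differed by -0.23 (Nuf2) and -0.07 (Ndc80), with 4 and 2 transgenic embryos below every control. The difference between these subunits was not tested. Cenpe, a kinetochore motor, differed by -0.18, Cenpf, a large kinetochore protein of G2 and mitosis, by -0.16, and Cenpa, the centromeric histone H3 variant, by -0.08. The Cenpa value turned to 0.02 without transgenic embryo 1 and control embryo 5.

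Genes of anaphase and mitotic exit were lower in 5 of 5 cases, with a median log2 difference of -0.17. Cdca3 was placed in this group, although its product is a cofactor for degradation of Wee1, an inhibitor of mitotic entry. It read 6.86, 7.24, 6.98, 7.48 and 7.34 in transgenic and 7.55, 7.48, 7.42, 7.25 and 7.75 in control embryos. Control embryo 4 lay within the transgenic range, and 3 transgenic embryos lay below it. The difference was -0.31 ± 0.12 (95% interval -0.58 to -0.04; limma adjusted p = 0.596). Cdc20, the activator of the anaphase-promoting complex that the checkpoint holds back, read 7.45, 7.98, 7.67, 7.96 and 7.77 in transgenic and 7.99, 7.85, 7.94, 7.90 and 8.01 in control embryos. Embryos 1, 3 and 5 lay below the controls and embryos 2 and 4 within them. The difference was -0.17 (95% interval -0.38 to 0.03; limma adjusted p = 0.732). Espl1, encoding separase, differed by -0.21, Ube2c, the ubiquitin-conjugating enzyme of the complex, by -0.15, and Pttg1, encoding securin, by -0.11.

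In both general markers of dividing cells, embryos 1, 3 and 5 were the lowest of the transgenic group, in that order. Mki67, encoding the Ki-67 antigen, read 8.86, 9.36, 9.04, 9.28 and 9.16 in transgenic and 9.26, 9.30, 9.37, 9.19 and 9.40 in control embryos. Embryos 1, 3 and 5 lay below the controls, and the difference was -0.16 (95% interval -0.36 to 0.03; limma adjusted p = 0.736). Top2a, encoding the topoisomerase that disentangles sister chromatids, read 9.67, 10.02, 9.69, 10.08 and 9.996 in transgenic and 10.03, 9.97, 10.04, 10.03 and 10.03 in control embryos. The controls were tight, and of the transgenic embryos 1 and 3 alone lay below them. The difference was -0.13 (95% interval -0.31 to 0.05; limma adjusted p = 0.791). A second, dimmer Top2a probe set, annotated to 1 cDNA, differed by -0.03. It read 3.53 to 3.93 across the embryos, below the lowest array median of 5.36. Whether it measures Top2a above background could not be judged.

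Neighbouring gene groups were read in the same fit, and 0 genes passed in either direction in each of the following lists. Over all genes 0.105% passed, and 3.48% were lower at an unadjusted limma p below 0.05. Of 31 measured further kinetochore and centromere genes 28 were lower, with a median log2 difference of -0.17, and 4 of these had an unadjusted limma p below 0.05, among them Cenpl at -0.42 and Cenpm at -0.24. All 41 measured further genes of mitotic entry and spindle were lower, with a median of -0.20 and 15 at an unadjusted p below 0.05. Examples are the kinase gene Pbk at -0.32 and the mitotic kinesin gene Kif20b at -0.23. All 24 S-phase genes were lower, with a median of -0.18 and 7 at an unadjusted p below 0.05, such as Pcna, the sliding clamp of DNA polymerase, at -0.22. Of 15 genes of the anaphase-promoting complex and its regulators, many of which are made in all cells, 10 were lower and 5 higher with a median of -0.04. The largest differences there were those of Fbxo5, an inhibitor of the complex, at -0.28 and the conjugating enzyme gene Ube2s at -0.20. Of 10 DREAM and MuvB genes 8 were lower, with a median of -0.07 and Lin9, a MuvB subunit, at -0.15.

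**Figure D4:**
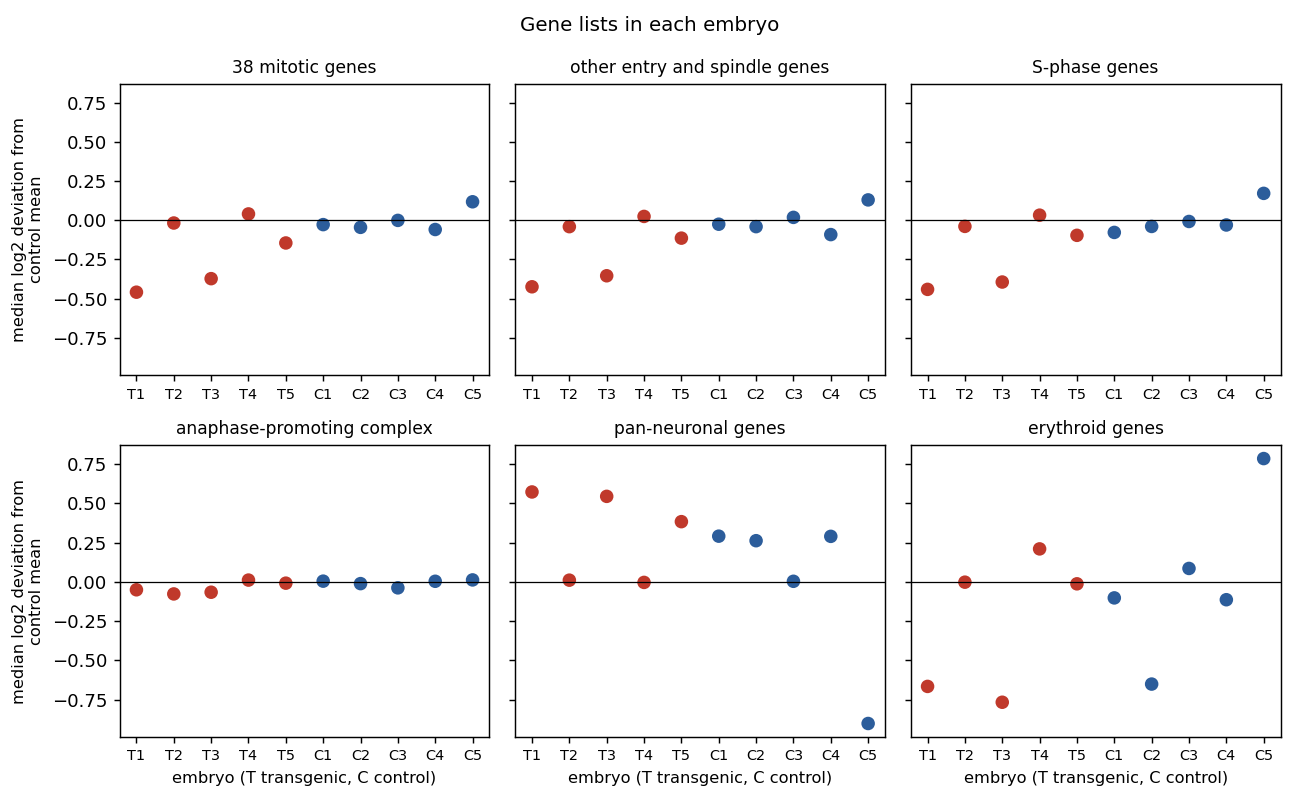
Median log2 deviation from the control mean over the genes of each list (vertical) in each embryo (horizontal; T transgenic in red, C control in blue). Mitotic, entry and spindle, and S-phase genes are lowest in T1 and T3, the anaphase-promoting complex lies between -0.08 and 0.01 in all embryos, and pan-neuronal genes are highest in T1 and T3 and lowest in C5.

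Embryo by embryo, the S-phase genes tracked the mitotic ones. Their median relative to the controls' mean was -0.44, -0.04, -0.39, 0.03 and -0.10 in transgenic embryos 1 to 5. Of the markers of other cell types, the pan-neuronal genes ran opposite to the mitotic genes at both ends of the order of embryos and the erythroid genes ran with them there, while the other lists followed that order in part or not at all. Their part in the result was not tested. Pan-neuronal genes were higher in 19 of 20 cases. Their levels (mean log2 over the list) ran from 8.12 to 8.72 in transgenic and 7.24 to 8.44 in control embryos. They were highest in transgenic embryos 1 (8.72) and 3 (8.70), where the mitotic genes were lowest, and lowest in control embryo 5 (7.24). Thalamic genes were higher in 10 of 11 cases, at 6.98 to 7.77 against 6.31 to 7.32, and the lower one, Lhx2, is also a cortical gene. Their median log2 difference was 0.65, further from 0 than that of the mitotic genes or of any other list. At an unadjusted limma p below 0.05, 6 of the 11 were higher, against 818 of all 19938 genes. Among these were Olig3 at 2.26 and Dbx1 at 1.11. By embryo the thalamic levels were 7.62, 7.70, 7.77, 6.98 and 7.23 in transgenic and 6.36, 6.31, 7.21, 7.32 and 6.32 in control embryos. They did not follow the mitotic order throughout: transgenic embryo 2, whose mitotic genes sat among the controls, had a higher thalamic level than transgenic embryo 1, whose mitotic median was lowest. Erythroid genes were lower in 6 of 7 cases, at 6.72 to 7.61 against 6.75 to 7.99, and lowest in transgenic embryos 3 and 1 (6.72 and 6.74), with control embryo 2 close to them (6.75) and control embryo 5 highest (7.99). Mesenchyme genes were lower in 7 of 10 cases, at 6.42 to 7.13 against 6.18 to 8.18, with transgenic embryos 1 and 3 at 6.87 and 6.54, inside the range of the controls. Endothelial genes were lower in 7 of 9 cases, at 6.22 to 6.62 against 6.25 to 6.83, and microglia genes in 1 of 7, at 5.18 to 5.26 against 5.09 to 5.28.

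Progenitor markers outside the cell cycle had group medians nearer to 0. Radial glia genes were lower in 10 of 16 cases with a median of -0.05. Their mean levels were 8.71 to 8.85 in transgenic and 8.82 to 8.89 in control embryos. At an unadjusted limma p below 0.05, 2 were lower and 1 was higher. Of those, Id4, a repressor of bHLH factors, differed by -0.33, the metabolic enzyme gene Ddah1 by -0.47 and Pax6, a transcription factor of cortical progenitors, by 0.22. Relative to the controls' mean, the radial glia median was -0.13, 0.03, -0.13, 0.03 and -0.07 in transgenic embryos 1 to 5. Embryos 1 and 3 were thus lowest here too, as they were among all 10 in mean level (8.72 and 8.71). The part of these markers in the mitotic result was not tested. Intermediate progenitor genes were lower in 5 of 10 cases with a median of 0.0065, and 2 lower and 3 higher had an unadjusted limma p below 0.05. Eomes, their defining transcription factor, differed by -0.58 and the somatostatin receptor gene Sstr2 by -0.60, whereas Btg2, an antiproliferative gene of neurogenic progenitors, differed by 0.21 and the Notch pathway gene Dll3 by 0.34. None of these passed over all genes in limma. Of all 19938 genes, 693 were lower and 818 higher at an unadjusted limma p below 0.05.

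The arrays were alike in scale, with medians from 5.36 to 5.39, and pairs of arrays correlated at 0.980 to 0.996 across genes. Foxo3 read 6.95, 7.13, 7.10, 6.76 and 6.96 in transgenic and 6.50, 6.61, 6.59, 6.64 and 6.87 in control embryos, so transgenic embryo 4 overlapped control embryo 5. The difference was 0.34 (limma adjusted p = 0.218), and the labels do not say whether the probes cover the transgene. Forebrain markers were present, with Emx2 between 6.90 and 8.08 and Lhx2 between 8.99 and 9.95, but Dlx1 and Dlx2 had their lowest values, 4.82 and 5.11, in control embryo 5, below the array median. That embryo also had the highest mesenchyme level, 8.18, and without it the median over the mitotic genes was -0.15 with 38 of 38 lower.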

How the data were processed

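Intensities were deposited as 1 table of 35556 probe sets by 10 arrays, and the tool named in the submitters' processing notes is Affymetrix Expression Console. Its version, algorithm and settings are not given in the sources used here. The deposited values read as log2 intensities normalized between arrays by the authors; this scale was inferred from their range, and they were used as they stand. Probe sets were named through the platform's gene table, and matching its gene identifiers to RefSeq (GRCm38.p6) changed 0 symbols. A single symbol belonged to 21789 probe sets, several to 1621 and no symbol to 12146. The brightest probe set represented each of 19938 genes.

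Groups came from the sample titles. Differences (transgenic minus control) were fitted with limma 3.58.1 in R 4.3.3, with group alone, empirical Bayes variances, two-sided tests, 95% intervals and Benjamini-Hochberg adjustment over all genes (threshold 0.05). The fit was also run on simulated data, with noise independent between genes and shifts larger than the difference of any member. That run therefore does not show how the fit performs on differences of the members' size. The labels do not describe the embryos as anything but separate samples, and the number of arrays limits the precision. Same-numbered embryos were not treated as pairs, since the labels do not say so and 1 of 5 pairs had deviations correlated above 0.1.

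The members, gene lists and tests were chosen with earlier results of these data known. Values in every embryo were given for the 10 members with the smallest p and for Mki67, Top2a, Cdk1, Cdc20, Bub3 and Foxo3; of the other lists genes were named from the 4 with the smallest p, except Emx2, Dlx1, Dlx2 and the thalamic Lhx2, which were chosen after their values were seen. The promoters printed, and the embryos left out together, were chosen after the values were seen. Alternatives were a replicate block, a fit without each embryo in turn, quantile normalization, centring on array medians, array weights, variances with trend and robust settings, averaging all probe sets of a gene, and dropping genes under the 40th percentile of mean level.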

Additional observations from a re-analysis of the deposited data

Results flagged for a closer look

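Within each group of 5 embryos, 76 sets of values of the mitotic genes were searched for an embryo far from the rest (gap to the nearest value over the group's range above 0.71). Chance flags about 1 in 20 such sets, and 6 were found, all among the controls. Control embryo 5 stood above the other controls in Anln (7.71 against 7.36 to 7.45), Cdca8 (7.92 against 7.65 to 7.70) and Cenpa (9.24 against 8.91 to 8.98). Control embryo 2 stood below the others in Prc1 (8.44 against 8.59 to 8.63) and Top2a (9.97 against 10.03 to 10.04). Control embryo 1 stood below the others in Spc25 (7.72 against 7.82 to 7.86). Transgenic embryos 1 and 3 were low together, a pattern that this search, which looks for 1 distant value, cannot find.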

How the results depend on the processing

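Over 17 planned settings 0 of 646 values of single mitotic genes changed direction and 0 passed, with a smallest limma adjusted p of 0.159. All 38 were lower in each. Many of these values could not change direction. The replicate block, the trend and robust variances and the filter on mean level leave every difference as it was. Averaging probe sets can alter Cks2 and Top2a alone. The median over the genes ran from -0.24 to -0.0999 when each embryo in turn was left out. With the replicate number as a block the median was -0.178, a value that the balanced design fixes in advance. That fit called 2 genes over the whole table and 0 mitotic genes. Over all genes 21 passed; 39 passed with array weights. Leaving out 1 embryo gave 7 (transgenic 1), 10 (transgenic 2), 14 (transgenic 3), 12 (transgenic 4), 8 (transgenic 5), 8 (control 1), 10 (control 2), 11 (control 3), 58 (control 4) and 37 (control 5). The count of mitotic genes at an unadjusted p below 0.05, 13 with all embryos, was 3 without transgenic 1 or transgenic 3, 21 without transgenic 2, 25 without transgenic 4, 7 without transgenic 5, control 1 or control 3, and 4 without control 5. Shares of all genes at that threshold were not computed for these refits, so the counts are descriptions only.

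Chosen after the data were seen, leaving out transgenic embryo 1 with control embryo 5 gave a median of -0.08, with 37 genes lower and Cenpa at 0.0239 (-0.1595 to -0.0211 when 1 embryo was left out), and 11 genes called over the whole table. Leaving out transgenic embryos 1 and 3 gave -0.04, with 28 lower and 8 called over the whole table. In that fit 10 genes turned: Ccnb2 (0.0359), Ccna2 (0.0449), Cdk1 (0.0108), Nusap1 (0.0393), Hmmr (0.0182), Cdca8 (0.0274), Cenpa (0.0675), Cenpe (0.00187), Pttg1 (8.15e-05) and Top2a (0.0117). With 3 transgenic embryos left, this fit has little precision. The table gives no background signal, so limits for dim probe sets could not be set.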
